A study of Mus musculus with 24 samples.

Results

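The genes described here are 28 genes of cholesterol and fatty acid synthesis in cultured mouse liver endothelial cells in which P16Ink4a was silenced or overexpressed. They are a fixed list of names, which no measured threshold selects, although earlier results of these data were known when it was drawn up. Each name was found once, as a protein-coding gene, among the 56748 genes of the count table. Of the 28, 7 genes act from the first committed steps of the mevalonate pathway to squalene, 10 from squalene to cholesterol, 3 are regulators, 4 build saturated fatty acids and 4 put double bonds into them.

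Cells make cholesterol from acetyl-CoA through mevalonate, farnesyl pyrophosphate, squalene and lanosterol, and fatty acids from the same precursor through malonyl-CoA. Both routes are driven by the SREBP transcription factors, encoded by Srebf1 and Srebf2, which are held in the endoplasmic reticulum by SCAP and INSIG when sterols are plentiful and are cut and sent to the nucleus when sterols fall. Genes of the pathway are therefore known to move together, with SREBP2 acting mainly on cholesterol genes and SREBP1 on fatty acid genes.

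RNA was sequenced from 24 libraries, 3 for each of 8 groups, 1 week after lentiviral transduction. Cd31+ liver endothelial cells and Cd146+ cells, which the study calls sinusoidal, were separated with magnetic beads from livers of adult C57BL/6 mice, which the methods describe as female and as 3 months old, and were grown in culture. Each population received P16 shRNA (a hairpin directed at P16Ink4a) or nc shRNA (the non-coding control hairpin in the same pLKO.1 vector), or P16 (P16Ink4a joined to GFP) or empty vector (the same lentiviral vector without this insert). Per the methods, puromycin selection served to judge how efficient infection was, and selection of the sequenced cultures is not stated. Libraries carry replicate numbers that are shared between constructs of a population: Cd31+ silencing has numbers 1, 2 and 3 in both arms, whereas Cd146+ silencing shares numbers 3 and 5. No source used here says whether each library of a group came from its own animal, so p-values measure the spread between these libraries.

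Each library holds 15409767 to 26470392 gene counts. Cdkn2a, the gene of P16Ink4a, was present at 56.7 ± 19.9 CPM (counts scaled to library size, SD, n = 3) with nc shRNA and at 6.67 ± 2.22 CPM with P16 shRNA in Cd31+ cells (log2 fold change −3.08, adjusted p = 0.0218 from edgeR), and at 138.8 ± 52.1 and 14.9 ± 9.50 CPM in Cd146+ cells. With P16 it stood at 229.9 ± 96.7 CPM against 56.7 ± 23.7 CPM with empty vector in Cd31+ cells, and at 497.8 ± 308 against 91.9 ± 19.4 CPM in Cd146+ cells. In each of these 4 comparisons the groups did not overlap. Only silencing in Cd31+ cells passed adjustment for Cdkn2a in edgeR when groups alone were compared. Silencing in Cd146+ cells had an adjusted p of 0.361 there (log2 fold change −3.21, edgeR). P16 had adjusted p-values of 0.947 in Cd31+ cells (2.02) and 0.986 in Cd146+ cells (2.44), also from edgeR. The 3 Cd146+ libraries of number 3 (nc shRNA, P16 shRNA and P16) stood apart, with 4.02 to 10.1 CPM of the endothelial gene Pecam1 against 58.6 to 286.5 CPM in the other 21 libraries. By the sum of 14 endothelial markers these 3 (470.9 to 532.1 CPM) were not the lowest. Cd31+ P16 shRNA library 1 was the lowest, at 402.5 CPM, and its mesenchymal sum of 51100 CPM was the highest of all libraries. Of 8 sinusoidal markers, 2 defining genes, Stab2 and Clec4g, were under 1 CPM in every library of both populations. The sum of the 8 ran from 6.57 to 469.4 CPM over the libraries. Of 11 hepatocyte markers, 10 were under 1 CPM in every library. Summed mesenchymal markers (10 genes, Lrat and Reln under 1 CPM throughout) came to 6626 to 51100 CPM. In 8 libraries Xist was high and Ddx3y at 0, and in the other 16 Ddx3y was high, although the methods name female mice. The 8 were all libraries of numbers 4, 5 and 6, and were unevenly spread over the Cd146+ groups. There they were P16 shRNA libraries 5 and 6, nc shRNA library 5, empty vector libraries 4 and 5 and P16 library 5. Every Cd146+ group thus holds libraries of both kinds, which cannot all come from a single animal. The same holds for empty vector and P16 in Cd31+ cells, whereas both Cd31+ silencing groups hold Ddx3y libraries only.

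All 28 genes were expressed to some degree. Per length, as the authors' FPKM (fragments scaled to gene length and library size) over the 12 control libraries, levels ran from 114 ± 40.8 (SD, n = 12) for Scd2, a stearoyl-CoA desaturase, to 0.227 ± 0.167 for Fdps, which makes farnesyl pyrophosphate. Fads2 (50.6 ± 21.4 FPKM) and Fads1 (33.6 ± 9.73 FPKM), the desaturases of polyunsaturated fatty acids, and Acly (34.1 ± 3.57 FPKM), which supplies cytosolic acetyl-CoA, followed Scd2. Fasn, the fatty acid synthase, stood at 21.6 ± 3.36 FPKM, Srebf2 at 18.4 ± 3.21 and Srebf1 at 16.9 ± 1.81. Cholesterol enzymes lay lower, from Sqle (15.7 ± 5.19 FPKM) and Cyp51 (15.0 ± 5.81 FPKM) down to Dhcr7 (1.89 ± 0.610 FPKM) and Tm7sf2 (1.40 ± 0.436 FPKM). Along this order only the step from Scd2 to Fads2 and that from Tm7sf2 to Fdps exceeded the sum of both SDs, so neighbours at the other places cannot be ranked. Across all 24 libraries Idi1, an isomerase of the mevalonate route, varied the most, 11.7-fold from 3.43 to 39.97 CPM, while Srebf1 varied the least, 1.54-fold from 72.9 to 112 CPM.

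Silencing of P16Ink4a in Cd31+ cells gave no member past adjustment when groups alone were compared. When libraries of the same number were also matched, 5 mevalonate genes and 2 of the 10 genes after squalene rose. Compared by groups alone, 4 of the 27 members tested were higher at an unadjusted p under 0.05 and none was lower, where 9.51% of all 14358 genes were higher at that threshold. These were Acaca, Lss, Pmvk and Mvk. No member passed an adjusted p under 0.05 in edgeR's quasi-likelihood test (1.3% of all genes did), and DESeq2 gave 8 members at an unadjusted and 0 at an adjusted p under 0.05. The share of all genes is not given for DESeq2, here or below, so its counts do not set the members apart. The median log2 fold change of the members was 0.278 against 0.003 for all genes tested. Fdps was left out here by the low-count filter. In bulk RNA such as this, fewer cells of a type and less RNA per cell cannot be told apart.

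Same-numbered libraries deviated together, so a fit that also holds a term for each replicate number (the replicate block) is given beside it, and the words rose and fell are kept for genes with an adjusted p under 0.05 in the fit named. The block gave 15 members higher at an unadjusted p under 0.05 (16.8% of all genes) and 11 higher at an adjusted p under 0.05 (8.92% of all genes), while none was lower (9.9% of all genes). The 11 genes that rose by this fit were 5 of the 6 tested genes of the mevalonate route, 2 of 10 genes from squalene to cholesterol, 2 of 3 regulators and 2 of 4 desaturases. None of the 4 fatty acid synthesis genes passed. With the other constructs of the population in the same fit (12 libraries), 11 members rose again (7.95% of all genes), with Fdps in place of Scd1.

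Hmgcs1, which makes HMG-CoA at the head of the pathway, was at 70.9, 38.7 and 55.6 CPM in nc shRNA libraries 1, 2 and 3 and at 149, 49.6 and 96.3 CPM in the P16 shRNA libraries of the same numbers. The groups overlap, since P16 shRNA library 2 lies under nc shRNA libraries 1 and 3, but P16 shRNA is the higher library within each pair. Its log2 fold change was 0.75 with the block (SE 0.13, adjusted p = 0.0067 from edgeR) and 0.85 without (SE 0.42, adjusted p = 0.335). Pmvk, the phosphomevalonate kinase, was at 3.74, 5.30 and 6.63 CPM with nc shRNA and at 9.96, 7.09 and 9.14 CPM with P16 shRNA, and here the groups did not overlap. It rose by 0.75 on the log2 scale in the blocked fit (SE 0.22, adjusted p = 0.0483). Mvk, the mevalonate kinase one step earlier, was at 16.8, 16.8 and 20.0 CPM with nc shRNA and at 31.1, 18.3 and 30.7 CPM with P16 shRNA, so that only library 2 overlapped the controls (log2 fold change 0.55, SE 0.15, adjusted p = 0.0386 in the blocked fit).

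Idi1 also rose (0.80, adjusted p = 0.0109), as did Fdft1, the squalene synthase (0.97, adjusted p = 0.000617), both in the blocked edgeR fit. Mvd, the decarboxylase of the same route, was 1.48-fold higher without passing (adjusted p = 0.0632). Fdft1 was at 40.5, 18.9 and 26.7 CPM with nc shRNA and at 83.1, 32.3 and 55.9 CPM with P16 shRNA. It shares 774 bases at 100% identity with transcripts of the neighbouring gene Ctsb, the lysosomal protease cathepsin B, which has 415306 counts in all against 20524 for Fdft1. Ctsb itself rose by 0.63 in the blocked fit (adjusted p = 0.00241), and no source used here says that counting used the strand, so the value of Fdft1 is uncertain. Fdps rests on 6 to 57 reads per library and has 6 near copies, of which the pseudogene Gm3571 (98.9% identical over 1062 bases) drew 1786 reads in all against 519 for Fdps. Gm3571 rose too (log2 fold change 0.98 in the blocked fit, adjusted p = 0.0381), and which of them the reads come from was not tested.

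Of the enzymes after squalene, Lss and Cyp51 rose. Lss, which closes the sterol rings, was at 28.7, 22.9 and 23.9 CPM with nc shRNA and at 48.4, 28.5 and 36.6 CPM with P16 shRNA (log2 fold change 0.57, SE 0.12, adjusted p = 0.0116 in the blocked edgeR fit). Only P16 shRNA library 2 overlapped the controls, at the level of nc shRNA library 1. Cyp51, the lanosterol demethylase, was at 78.8, 37.2 and 54.8 CPM with nc shRNA and at 147, 42.8 and 104 CPM with P16 shRNA (0.69, SE 0.14, adjusted p = 0.0152). Sqle, the squalene epoxidase that feeds both, showed no such shift, with 83.6, 53.4 and 64.9 CPM against 105, 42.8 and 62.2 CPM (−0.01, SE 0.12, adjusted p = 0.976). The late steps Ebp, Nsdhl, Sc5d, Hsd17b7, Tm7sf2, Dhcr7 and Msmo1 did not pass, with log2 fold changes from −0.21 (Dhcr7) to 0.42 (Msmo1) in the blocked fit.

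Of the 3 regulators 2 rose. Srebf2, which encodes the SREBP of the cholesterol genes, was at 146, 104 and 111 CPM with nc shRNA and at 211, 134 and 154 CPM with P16 shRNA, and rose by 0.46 on the log2 scale (SE 0.09, adjusted p = 0.00905 in the blocked edgeR fit). Insig1, itself a known SREBP target that holds SCAP back, was at 35.5, 22.5 and 29.1 CPM against 58.8, 23.1 and 43.4 CPM, and rose by 0.46 (SE 0.14, adjusted p = 0.0476). Srebf1 was at 99.8, 98.9 and 96.5 CPM with nc shRNA and at 88.8, 95.5 and 84.3 CPM with P16 shRNA. All 3 P16 shRNA libraries thus lay under the controls, by a small amount that did not pass (log2 fold change −0.13, adjusted p = 0.323).

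In the fatty acid branch none of the 4 synthesis genes passed, and 2 of 4 desaturases rose. Acaca, the acetyl-CoA carboxylase that makes malonyl-CoA, was at 54.6, 53.9 and 50.8 CPM with nc shRNA and at 64.2, 67.5 and 60.6 CPM with P16 shRNA, groups that do not overlap (log2 fold change 0.28, SE 0.09, adjusted p = 0.17 from edgeR by groups alone, adjusted p = 0.0573 with the block). It has a near copy in the pseudogene Gm5182 (99.2% identical over 6118 bases, 3979 reads in all against 23352). Fasn was at 251, 240 and 267 CPM against 277, 263 and 253 CPM, with overlapping groups and a log2 fold change of 0.07 (SE 0.09, adjusted p = 0.624 in the blocked fit). Acly (0.12) and Elovl6 (0.23), the elongase of palmitate, did not pass either.

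Scd1, the other stearoyl-CoA desaturase measured, was at 67.0, 37.5 and 40.3 CPM with nc shRNA and at 90.8, 52.6 and 50.5 CPM with P16 shRNA, and rose by 0.42 in the blocked edgeR fit (SE 0.09, adjusted p = 0.0139). Fads2, the delta-6 desaturase, was at 307, 124 and 152 CPM against 496, 176 and 228 CPM (0.60, SE 0.09, adjusted p = 0.00301). In both genes library 1 was the highest of its group and each P16 shRNA library exceeded its own control. Scd2 was at 986, 798 and 576 CPM against 1154, 872 and 714 CPM (0.23, SE 0.09, adjusted p = 0.108). Fads1, the delta-5 desaturase, which acts after Fads2 and lies beside it in the genome, was at 250, 139 and 149 CPM against 275, 133 and 142 CPM, a log2 fold change of 0.00 (SE 0.09, adjusted p = 0.979, interval of 2 SE from −0.18 to 0.18).

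**Figure D1:**
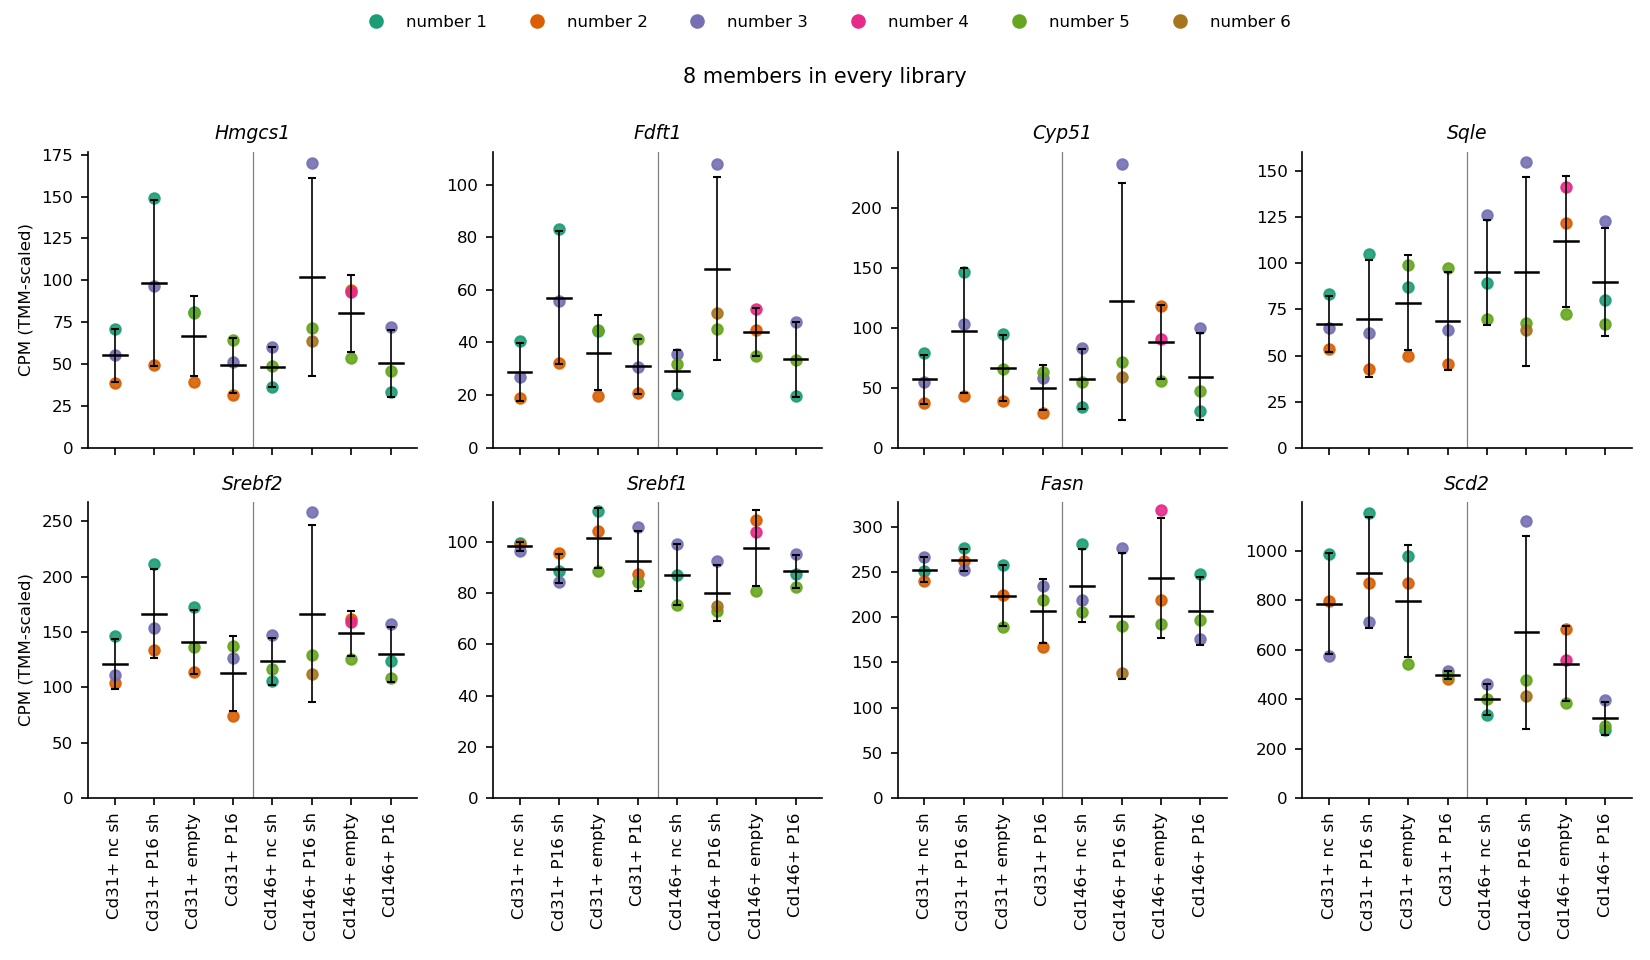
Levels of 8 members in every library, as TMM-normalized CPM on axes that start at 0; circles are libraries coloured by replicate number, bars are group means and error bars the SD (n = 3). Hmgcs1 reached 149 CPM in Cd31+ P16 shRNA library 1 and 170 CPM in Cd146+ P16 shRNA library 3, its highest values, while Srebf1 stayed between 72.9 and 112 CPM throughout.

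Counts in Cd31+ cells moved when single libraries were left out. By groups alone, the members at an unadjusted p under 0.05 numbered 0 without P16 shRNA library 1, 0 without nc shRNA library 2, 2 without nc shRNA library 3, 2 without P16 shRNA library 3 and 11 without P16 shRNA library 2, against 4 with all libraries. The share of all genes is not given for these fits, nor for later ones by groups alone with a single library left out. It can change with the library left out, so these counts do not set the members apart from other genes. With the block over 12 libraries, leaving out all libraries of number 1 left 3 members that rose at an adjusted p under 0.05 (2.23% of all genes), leaving out number 3 also left 3 (2.89%), and leaving out number 2 gave 13 (6.26%). Fads2, Fdft1 and Hmgcs1 were among them each time.

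Promoters were read for the members because many of them rose together with P16 shRNA. RefSeq windows of 300 bases (250 before to 50 after the start, build GRCm38.p6) were matched by symbol for 22 of the 28 members, and none was found for Fads1, Fdft1, Fdps, Scd1, Scd2 and Sqle. The CCAAT box, to which NF-Y binds beside SREBP in known sterol promoters, was searched as CCAAT on both strands and was present in 19 of 22 members (86.4%), against 41.1% of 27025 genes and 42.8% of the 11438 genes that were both tested and matched. The GC box GGGCGG was present in 18 of 22 (81.8%), against 38.2% of all genes and 66.5% of those tested. A sterol regulatory element written as TCACNCCAC was present in Hmgcs1 alone (1 of 22, against 1.44% of all genes). A match is a run of letters and not a bound site, and genes with several annotated starts were counted where any window held the letters. Acaca, Elovl6 and Fads2 were the members without CCAAT.

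The windows printed here belong to Hmgcs1 (chr13:119690101-119690400 on the plus strand), Cyp51 (chr5:4104648-4104947 on the minus strand) and Insig1 (chr5:28071162-28071461 on the plus strand), a head enzyme, a late enzyme and a regulator that rose with P16 shRNA in Cd31+ cells, and to Nsdhl (chrX:72918271-72918570 on the plus strand), a sterol dehydrogenase that did not pass there. They are written 5′ to 3′ in the direction of the gene, and capitals mark CCAAT, its reverse complement ATTGG and, in Hmgcs1, the TCACNCCAC match.
Hmgcs1: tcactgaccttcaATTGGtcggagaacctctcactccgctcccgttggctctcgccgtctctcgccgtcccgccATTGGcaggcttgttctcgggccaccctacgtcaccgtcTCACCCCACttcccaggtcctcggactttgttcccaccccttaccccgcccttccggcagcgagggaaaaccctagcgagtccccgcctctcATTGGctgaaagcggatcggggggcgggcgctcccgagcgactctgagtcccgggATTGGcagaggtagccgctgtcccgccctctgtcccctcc
Cyp51: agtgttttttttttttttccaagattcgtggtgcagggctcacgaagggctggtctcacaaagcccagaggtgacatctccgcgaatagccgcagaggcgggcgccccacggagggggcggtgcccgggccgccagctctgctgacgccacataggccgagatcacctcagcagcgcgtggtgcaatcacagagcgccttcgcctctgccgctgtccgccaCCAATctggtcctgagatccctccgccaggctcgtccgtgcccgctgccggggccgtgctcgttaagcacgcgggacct
Insig1: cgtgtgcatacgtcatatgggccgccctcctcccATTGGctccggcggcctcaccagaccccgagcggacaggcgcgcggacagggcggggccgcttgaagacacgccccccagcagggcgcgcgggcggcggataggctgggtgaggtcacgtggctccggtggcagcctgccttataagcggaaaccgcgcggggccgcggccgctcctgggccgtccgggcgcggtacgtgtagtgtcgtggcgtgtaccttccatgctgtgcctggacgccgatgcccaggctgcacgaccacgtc
Nsdhl: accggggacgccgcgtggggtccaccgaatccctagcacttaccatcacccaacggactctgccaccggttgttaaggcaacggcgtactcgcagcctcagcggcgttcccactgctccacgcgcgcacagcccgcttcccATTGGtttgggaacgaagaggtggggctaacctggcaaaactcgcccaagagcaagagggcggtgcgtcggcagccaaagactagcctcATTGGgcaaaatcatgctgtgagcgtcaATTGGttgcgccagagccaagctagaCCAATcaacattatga
Hmgcs1 and Nsdhl each hold 4 CCAAT boxes and Cyp51 and Insig1 1 each.

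In Cd146+ cells the mevalonate genes were again higher with P16 shRNA, and the values were led by 1 pair. By groups alone, 6 of 28 members were higher at an unadjusted p under 0.05 (5.44% of all 15124 genes) and none was lower. None passed adjustment in edgeR, where 0 of all genes did (0%), and DESeq2 likewise gave 6 members at an unadjusted and 0 at an adjusted p under 0.05. The 6 were Pmvk, Msmo1, Fdft1, Mvk, Hmgcs1 and Mvd, of which 5 belong to the mevalonate route. The median log2 fold change of the members was 0.462 against 0.025 for all genes. With the block, 13 members were higher at an unadjusted p under 0.05 over the 2 groups (7.57% of all genes) and 16 over 12 libraries (13.5%). P16 shRNA counts in the latter through libraries 3 and 5, because number 6 holds no other construct. In this fit 3 members rose at an adjusted p under 0.05 (3.53% of all genes) and none fell (4.8%). The block over the 2 groups, the fit used first for Cd31+ cells, gave no member at an adjusted p under 0.05. In 13 of 16 alternatives to the fit by groups alone, 0 members passed adjustment.

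The 3 that rose were Pmvk, Hmgcs1 and Fdft1. Pmvk was at 7.53, 6.96 and 6.83 CPM in nc shRNA libraries 1, 3 and 5 and at 15.8, 10.6 and 12.5 CPM in P16 shRNA libraries 3, 5 and 6, with a log2 fold change of 0.85 (SE 0.18, adjusted p = 0.0271 with the block over 12 libraries in edgeR). Hmgcs1 was at 35.9, 59.9 and 48.9 CPM against 170, 71.2 and 64.0 CPM (1.00, SE 0.20, adjusted p = 0.0291). Fdft1 was at 20.6, 35.5 and 31.8 CPM against 108, 45.2 and 51.1 CPM (1.02, SE 0.23, adjusted p = 0.0464). In all 3 genes the groups did not overlap, and P16 shRNA library 3, 1 of the 3 libraries low in Pecam1, was the highest of all 24 libraries for each of them. The share of all genes whose groups do not overlap is not given, here or for the other comparisons. Lack of overlap thus describes the libraries and adds no support to the tests. Ctsb, which shares sequence with Fdft1, had a log2 fold change of 0.31 here by groups alone (adjusted p = 0.502 from edgeR). Matching the 2 groups by replicate number in edgeR gave Ctsb 0.41 (unadjusted p = 0.0399, adjusted p = 0.294). Ctsb thus leaned the same way without passing, and the value of Fdft1 is uncertain in Cd146+ cells as well.

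Mvk was at 19.4, 23.98 and 22.6 CPM with nc shRNA and at 42.7, 26.2 and 37.6 CPM with P16 shRNA (log2 fold change 0.69, SE 0.22, adjusted p = 0.397 from edgeR by groups alone). Msmo1, which oxidizes the methyl groups of sterols, was at 28.5, 35.3 and 45.4 CPM against 90.8, 55.1 and 60.0 CPM (0.91, SE 0.27, adjusted p = 0.384). In both, every P16 shRNA library lay above every control. Sqle (0.00), Fasn (−0.22), Acly (−0.12), Fads1 (−0.27) and Ebp (−0.35), the sterol isomerase, did not pass by groups alone, with adjusted p from 0.557 to 0.998.

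Regulators and desaturases were spread widely within the Cd146+ P16 shRNA group. Srebf2 was at 106, 147 and 116 CPM with nc shRNA and at 258, 130 and 112 CPM with P16 shRNA, and Insig1 at 16.7, 47.0 and 28.4 against 93.2, 32.1 and 24.9 CPM. Srebf1 was at 87.0, 99.3 and 75.5 CPM against 92.6, 72.9 and 74.8 CPM. In each of these genes P16 shRNA library 3 was the highest of its group and the groups overlapped. Scd1 was at 36.3, 51.3 and 67.0 CPM against 102, 77.6 and 37.4 CPM, Scd2 at 336, 460 and 402 against 1121, 476 and 414 CPM, and Fads2 at 162, 232 and 100 against 252, 165 and 200 CPM. Scd2 in P16 shRNA library 3 exceeded every other library of this population, of which empty vector library 2 was the next with 686 CPM.

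Fads1 was at 217, 162 and 121 CPM against 182, 128 and 106 CPM, Fasn at 281, 219 and 206 against 277, 191 and 138 CPM and Sqle at 89.6, 126 and 70.0 against 155, 67.6 and 64.0 CPM, all with overlapping groups. P16 shRNA library 3 and nc shRNA library 3 are 2 of the libraries with low Pecam1. Without the libraries of number 3, 2 members, Fdft1 and Hmgcs1, were higher at an unadjusted p under 0.05 by groups alone (3.71% of all genes), and the median of the members was 0.182. With the block over the other 9 libraries, P16 shRNA counts through library 5 alone and the spread has 1 residual degree of freedom, which comes from the other constructs. That fit therefore compares little more than 1 pair. It gave 4 members higher at an adjusted p under 0.05 (4.42% of all genes), namely Hmgcs1 (log2 fold change 0.53), Fdft1 (0.47), Cyp51 (0.40) and Fads2 (0.66). Without number 5, P16 shRNA counts through library 3 alone, again with 1 residual degree of freedom, and 19 members were higher (14.8% of all genes) and Ebp lower at an adjusted p under 0.05. By groups alone, leaving out nc shRNA library 1, P16 shRNA library 3 or P16 shRNA library 6 changed the 6 members at an unadjusted p under 0.05 to 2, 3 and 9.

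**Figure D2:**
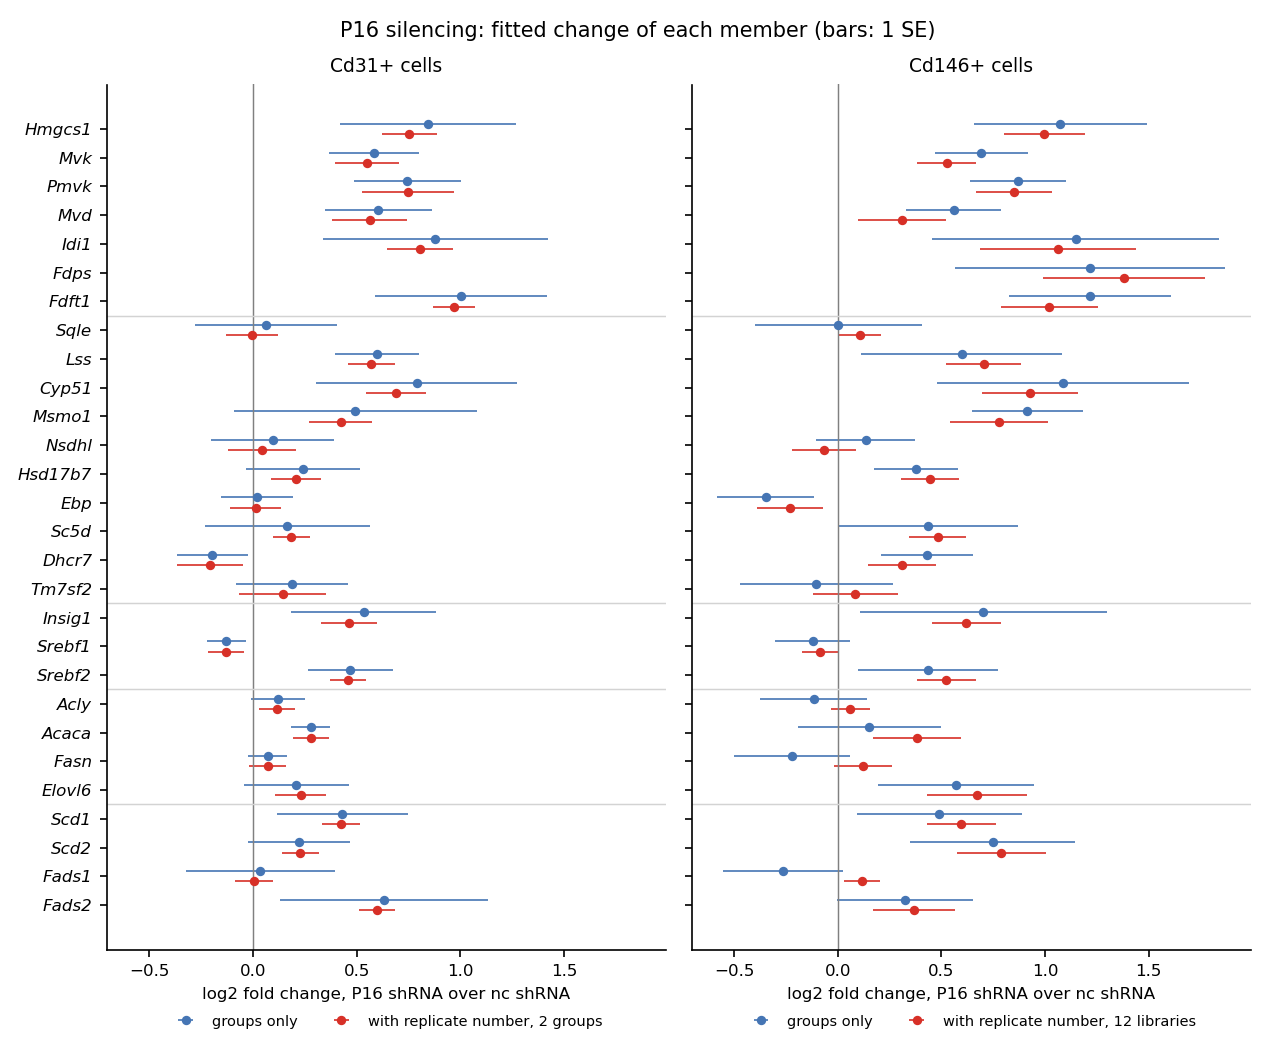
Fitted log2 fold change of each member with P16 shRNA over nc shRNA (points; bars are 1 SE), in Cd31+ cells (left) and Cd146+ cells (right), by groups alone (blue) and with the replicate number as a term (red); grey lines divide the branches. The red fit is over 2 groups on the left and over 12 libraries on the right. Values of Hmgcs1 to Fdft1 lie from 0.55 to 1.00 in Cd31+ cells, where Fdps was not tested and has no point, whereas Sqle, Ebp and Srebf1 lie near or under 0.

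Same-numbered libraries show the pattern without a fit. In each of the 3 Cd31+ pairs and both Cd146+ pairs, all 7 mevalonate genes were higher with P16 shRNA than with nc shRNA. Their median log2 ratio was 1.04, 0.37 and 0.79 in Cd31+ pairs 1, 2 and 3 and 1.504 and 0.51 in Cd146+ pairs 3 and 5. Of the 28 members, 19 were higher in all 3 Cd31+ pairs (27.3% of all genes), 20 in both Cd146+ pairs (34.4%) and 17 in all 5 (18%). Besides the 7, these 17 were Lss, Cyp51, Hsd17b7, Sc5d, Insig1, Srebf2, Elovl6, Scd1, Scd2 and Fads2. Srebf1 was the only member lower in all 5 pairs, by 0.05 to 0.20 on the log2 scale.

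The pairs differed in size rather than in which branch led. The median of all 28 members was 0.447, 0.167 and 0.318 in the Cd31+ pairs and 0.812 and 0.165 in the Cd146+ pairs, with 27, 20, 21, 25 and 21 of the 28 members higher, while 48.5 to 51% of all genes were higher in these pairs. Genes from squalene to cholesterol had a median log2 ratio of −0.09 in Cd31+ pair 2 and of 0.17 to 0.62 in the other 4. Pair 2 of Cd31+ cells and pair 5 of Cd146+ cells gave the smallest values.

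**Figure D3:**
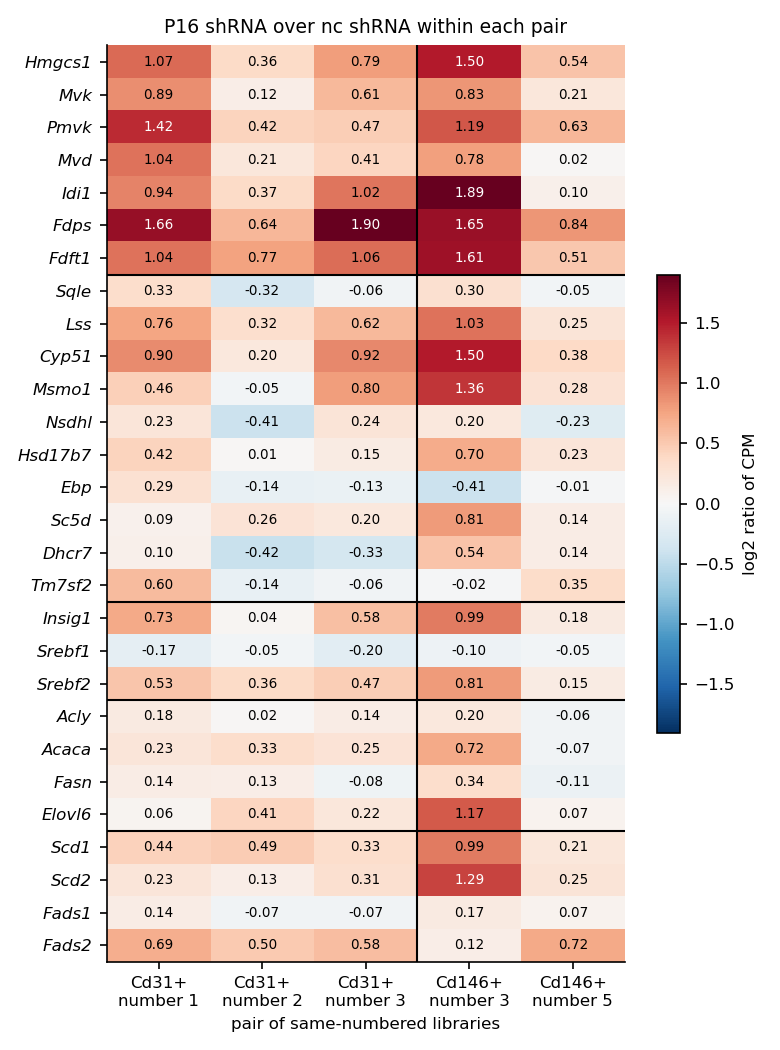
Log2 ratio of TMM-normalized CPM, P16 shRNA over nc shRNA, for the 28 members (rows, by branch) in the 5 same-numbered pairs (columns). All 7 mevalonate genes are above 0 in every column, and Srebf1 is under 0 in every column.

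Cell type markers moved in the same pairs. The summed level of the mesenchymal markers was higher with P16 shRNA in each pair, at 51100, 24130 and 34610 CPM against 37810, 20210 and 29780 CPM in Cd31+ cells and at 31670 and 30670 CPM against 27460 and 26710 CPM in Cd146+ cells. The summed level of the 14 endothelial markers, none of which was at 0, was lower with P16 shRNA in each pair, at 402, 616 and 761 CPM against 684, 697 and 1265 CPM in Cd31+ cells and at 471 and 1751 CPM against 532 and 1962 CPM in Cd146+ cells. Cholangiocyte markers (6 genes, the defining Epcam under 1 CPM throughout) were higher with P16 shRNA in each pair, at 982, 232 and 190 CPM against 802, 99.1 and 104 CPM in Cd31+ cells and at 166 and 296 CPM against 55.1 and 219 CPM in Cd146+ cells. Macrophage markers (10 genes, the Kupffer cell genes Clec4f and Timd4 under 1 CPM throughout) were lower in each pair, at 92.5, 36.9 and 30.0 CPM against 129, 55.6 and 37.2 CPM and at 19.6 and 195 CPM against 26.4 and 259 CPM. These 4 marker sums thus moved one way in all 5 pairs, whereas the sinusoidal and hepatocyte sums did not. The sinusoidal sum was higher with P16 shRNA in Cd31+ pair 2 and lower in the other pairs. The hepatocyte sum was lower in Cd31+ pair 3 and higher in the other pairs. Pecam1 taken alone was higher in Cd31+ pair 2 and lower in the other pairs. The part of these markers in the result was not tested.

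Whether silencing acted differently in the populations was tested directly over all 24 libraries. No member had an unadjusted p under 0.05 for the difference between the Cd146+ and Cd31+ effects in edgeR (1.2% of all 16524 genes did) or in DESeq2. The smallest p was that of Dhcr7, the 7-dehydrocholesterol reductase, with a difference of 0.63 (interval of 2 SE from −0.04 to 1.30, adjusted p = 1), and the median difference of the members was 0.057. With the block, Dhcr7 (0.53) and Scd2 (0.57) had an unadjusted p under 0.05 (4.55% of all genes), with an adjusted p of 0.986 each.

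Overexpression of P16 was compared with empty vector. In Cd31+ cells, of the 28 members, Scd2 alone was lower at an unadjusted p under 0.05 (2.29% of all 14565 genes were) and none was higher. It was at 483, 515 and 496 CPM in P16 libraries 2, 3 and 5 and at 982, 871 and 544 CPM in empty vector libraries 1, 2 and 5. The groups did not overlap, and empty vector library 5 lay close to the P16 libraries (log2 fold change −0.67, SE 0.22, adjusted p = 0.947 from edgeR). No member passed adjustment in edgeR or in DESeq2, which gave 1 at an unadjusted p under 0.05. The median of the members was −0.227 against 0.013 for all genes, and lay between −0.438 and −0.035 with single libraries left out, the latter without P16 library 2.

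With the block over the 2 groups, which share numbers 2 and 5 alone, 3 members were lower at an unadjusted p under 0.05 (4.25% of all genes). These were Scd1 (log2 fold change −0.50), Idi1 (−0.56) and Scd2 (−0.49), with adjusted p from 0.503 to 0.582. With the block over 12 libraries, Scd2 had an unadjusted p of 0.0145, Scd1 of 0.132 and Idi1 of 0.158 in edgeR. By groups alone, leaving out empty vector library 1 or 2 or P16 library 2 gave 0 members at an unadjusted p under 0.05. Leaving out empty vector library 5 or P16 library 5 gave 3. Hmgcs1 was at 31.4, 51.3 and 64.5 CPM with P16 and at 80.8, 39.4 and 80.3 CPM with empty vector, Srebf2 at 74.3, 126 and 137 against 172, 114 and 137 CPM, Insig1 at 20.1, 34.0 and 43.2 against 49.8, 25.8 and 42.6 CPM and Srebf1 at 87.4, 106 and 84.5 against 112, 104 and 88.7 CPM. All 4 overlapped. P16 library 2 was the lowest library of its group for Hmgcs1, Srebf2 and Insig1. Sqle was at 45.4, 63.7 and 97.8 CPM with P16 and at 87.4, 49.8 and 99.0 CPM with empty vector, and Fasn at 167, 235 and 220 against 258, 225 and 190 CPM. Scd1 was at 20.6, 41.0 and 73.7 against 61.7, 38.8 and 80.0 CPM, Fads1 at 126, 151 and 116 against 249, 154 and 133 CPM, and Fads2 at 128, 194 and 120 against 309, 132 and 126 CPM. These 5 genes overlapped between the groups as well.

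In Cd146+ cells, 6 members were lower with P16 than with empty vector at an unadjusted p under 0.05 (1.99% of all 14860 genes) and none was higher, and they belong mostly to the fatty acid branch. Elovl6 was at 8.53, 10.2 and 12.5 CPM in P16 libraries 1, 3 and 5 and at 21.4, 21.4 and 16.9 CPM in empty vector libraries 2, 4 and 5 (log2 fold change −0.93, SE 0.21, adjusted p = 0.986 from edgeR, as for all 6). Scd1 was at 29.5, 45.8 and 55.5 CPM against 95.1, 118 and 63.2 CPM (−1.07, SE 0.31). Dhcr7 was at 6.35, 8.37 and 8.96 CPM against 12, 20.1 and 11.4 CPM (−0.88, SE 0.29). Fdps, at 11 to 14 reads per library with P16 and 24 to 57 with empty vector, had a log2 fold change of −1.41 (SE 0.46). In these 4 genes the groups did not overlap, which adds no support, since they were picked by their p. Acaca (−0.41) and Scd2 (−0.76) were the others, Scd2 with 277, 398 and 292 CPM against 686, 560 and 383 CPM and with P16 library 3 above empty vector library 5.

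None of the 6 passed adjustment in edgeR, nor did any member in DESeq2, which gave 8 at an unadjusted p under 0.05. The replicate block over 12 libraries, in which empty vector enters through library 5 alone because numbers 2 and 4 hold no other construct, gave 0 members at an unadjusted p under 0.05. Without the low Pecam1 library, P16 library 3, 10 members were lower (1% of all genes). Leaving out P16 library 1, empty vector library 2 or empty vector library 4 gave 3 each, and leaving out empty vector library 5 gave 9. A block over the 2 groups could not be fitted, since only number 5 is shared. In the pair of number 5, 23 of 28 members were lower with P16, with a median log2 ratio of −0.12, while 49.3% of all genes were higher in this pair.

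For the other genes followed in every library, the Cd146+ groups with P16 and with empty vector overlapped. Hmgcs1 was at 32.9, 72.3 and 46.0 CPM against 94.1, 93.0 and 53.7 CPM, Insig1 at 21.9, 61.1 and 29.4 against 69.6, 78.8 and 31.5 CPM and Srebf2 at 124, 157 and 108 against 162, 159 and 126 CPM. Srebf1 was at 87.7, 95.3 and 82.5 against 108, 104 and 80.8 CPM, and Sqle at 80.0, 123 and 67.0 against 122, 141 and 72.3 CPM. In each of these 5 genes empty vector libraries 2 and 4 lay above empty vector library 5. Fasn was at 248, 176 and 197 against 219, 318 and 192 CPM, Fads1 at 216, 174 and 112 against 154, 111 and 123 CPM and Fads2 at 148, 302 and 108 against 133, 142 and 111 CPM.

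The empty vector libraries also differed from the other control. In Cd146+ cells nc shRNA was lower than empty vector in 8 members at an unadjusted p under 0.05 (2.13% of all 14976 genes) and higher in Ebp (1.86% of all genes were higher). The 8 were Msmo1, Dhcr7, Scd1, Hmgcs1, Fdps, Elovl6, Idi1 and Mvd. Both comparisons share the empty vector libraries, so their values are set side by side only. Elovl6 was at −0.66 with nc shRNA and −0.93 with P16, Scd1 at −0.84 and −1.07, Dhcr7 at −0.93 and −0.88, and Hmgcs1 at −0.74 and −0.68, all as log2 fold changes over empty vector. The median of the members was −0.501 with nc shRNA and −0.425 with P16. None of the 9 passed adjustment in edgeR or DESeq2, and the block over 12 libraries gave 0 members at an unadjusted p under 0.05. Leaving out single libraries gave from 1 member, without nc shRNA library 1, to 13, without empty vector library 5, with 2, 3 and 4 without empty vector library 2, empty vector library 4 and nc shRNA library 3. Empty vector library 4 also had the lowest mesenchymal marker sum, 6626 CPM, and its part in the result was not tested.

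In Cd31+ cells the 2 controls differed in Pmvk (log2 fold change −0.78) and Fdps (−1.29) at an unadjusted p under 0.05 (adjusted p = 0.992 for both), each lower with nc shRNA, where 1.73% of all 14473 genes were lower. Pmvk fell by 0.83 in the blocked fit over the 2 groups (adjusted p = 0.0292 from edgeR), which matches libraries of numbers 1 and 2 alone. In 12 of 13 alternatives to the fit by groups alone, 0 members had an adjusted p under 0.05. Pmvk was at 9.35, 7.08 and 10.4 CPM in empty vector libraries 1, 2 and 5. The Pmvk level with P16 shRNA in Cd31+ cells, 8.73 ± 1.48 CPM (SD, n = 3), was thus close to that of empty vector, 8.96 ± 1.71 CPM, and above that of nc shRNA, 5.22 ± 1.45 CPM. Hmgcs1 stood at 98.4 ± 49.9 CPM with P16 shRNA, 55.0 ± 16.1 CPM with nc shRNA and 66.8 ± 23.8 CPM with empty vector. These constructs sit in different vectors, and no test of P16 shRNA against empty vector was made. Leaving out nc shRNA library 2 or empty vector library 5 gave 0 members at an unadjusted p under 0.05, leaving out empty vector library 2 gave 5, and leaving out any of the other 3 gave 1.

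**Figure D4:**
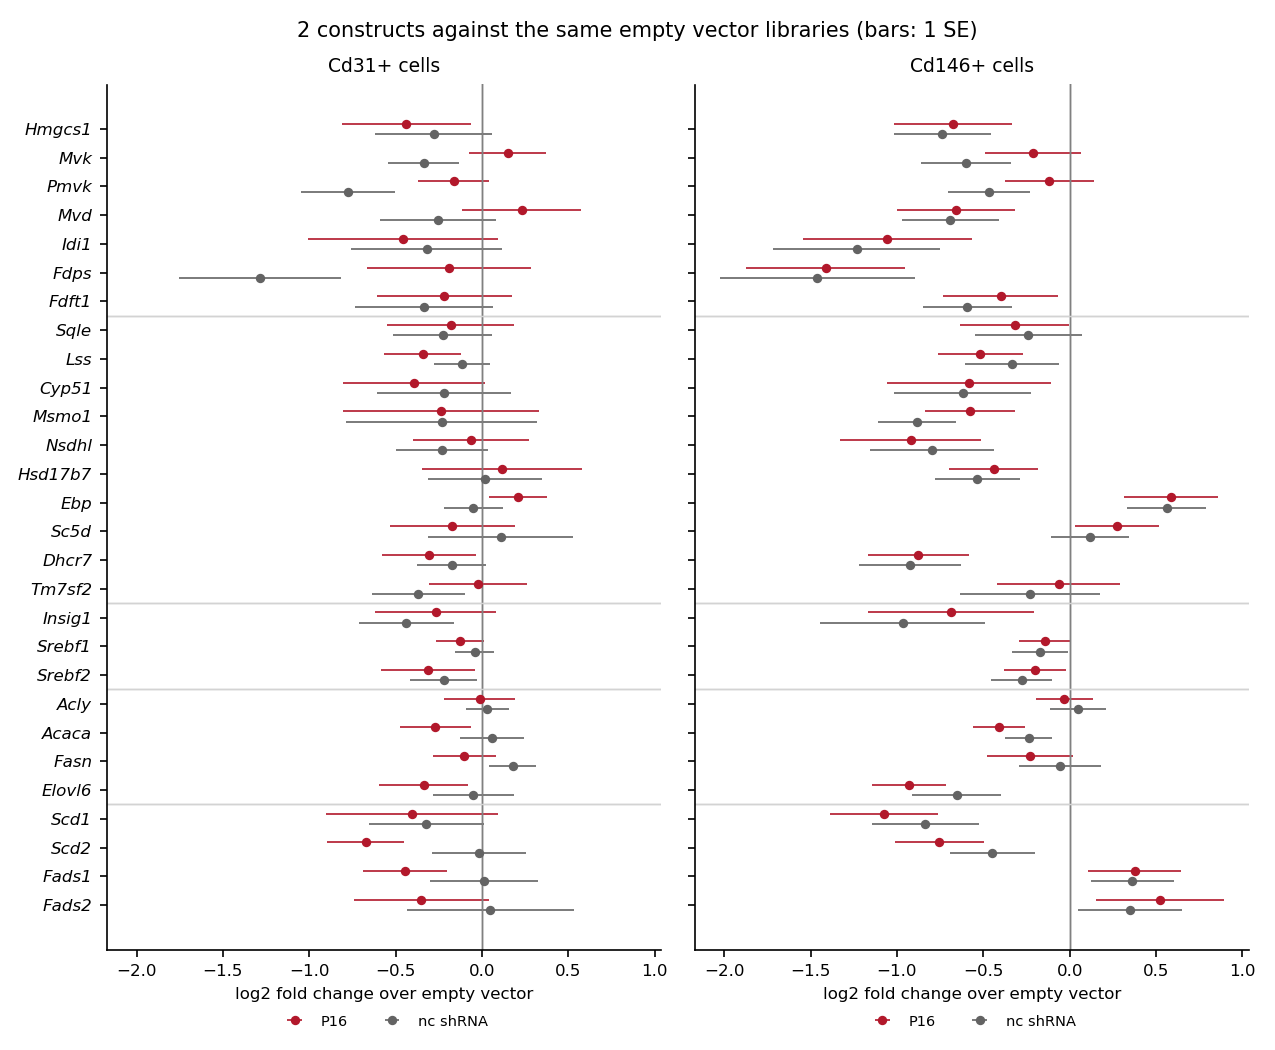
Log2 fold change of each member over empty vector (points; bars are 1 SE) with P16 (red) and with nc shRNA (grey), which share the same empty vector libraries, in Cd31+ cells (left) and Cd146+ cells (right). In Cd146+ cells most members lie under 0 with both constructs, with a median of −0.425 for P16 and −0.501 for nc shRNA.

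For the difference of the P16 effect between the populations, no member had an unadjusted p under 0.05 in edgeR (3.82% of all 16524 genes did) or in DESeq2. Mvd had the smallest p (difference −0.89, interval of 2 SE from −1.79 to 0.02, adjusted p = 0.989).

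Between the populations with control constructs, Scd2 stood out. It was at 399 ± 61.7 CPM with nc shRNA and 543 ± 152 CPM with empty vector in Cd146+ cells, against 787 ± 206 and 799 ± 228 CPM in Cd31+ cells (SD, n = 3 each). The log2 difference was −0.77 (SE 0.20, adjusted p = 0.142 from edgeR), and Scd2 was the 1 member with an adjusted p under 0.05 in DESeq2. Fdps, Mvk, Ebp, Mvd and Sqle were higher in Cd146+ cells at an unadjusted p under 0.05, by 0.43 to 0.94 on the log2 scale. These 6 of 28 compare with 17.5% of all 15676 genes. With a block that matched replicate numbers also across the populations, 3 members were under 0.05 (18.4% of all genes), Ebp (0.55), Scd2 (−0.63) and Dhcr7. Whether a number stands for the same source in both populations was not tested, so this fit may match unrelated libraries. Leaving out Cd31+ empty vector library 2, Cd31+ nc shRNA library 2 or Cd146+ empty vector library 4 gave 2, 3 and 2 members.

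Genes around the pathway were followed in 3 further lists. Of 11 genes that process SREBP, in the blocked Cd31+ silencing fit Ube2g2, a ubiquitin-conjugating enzyme of the endoplasmic reticulum, rose and Scap, the sterol-sensing escort of SREBP, fell, at the adjusted threshold (8.92% of all genes rose and 9.9% fell in this fit). Scap was picked out after its values were seen. It was at 79.5, 72.5 and 91.9 CPM with nc shRNA and at 51.2, 51.2 and 63.1 CPM with P16 shRNA, groups that do not overlap (log2 fold change −0.55, SE 0.09, adjusted p = 0.00409 from edgeR). In Cd146+ cells it was at 97.5, 132 and 69.0 CPM against 79.5, 46.5 and 47.0 CPM (−0.67, SE 0.09, adjusted p = 0.00553 with the block over 12 libraries). Here the groups overlap, because nc shRNA library 5 is under P16 shRNA library 3, while both pairs are lower with P16 shRNA.

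Of 22 other lipid synthesis genes, 6 rose and 1 fell in the blocked Cd31+ fit, against the same 8.92% and 9.9% of all genes. Tmem97, a sterol-regulated membrane protein, and Rdh11, a retinol dehydrogenase known as an SREBP target, passed also by groups alone. Tmem97 was at 26.2, 23.5 and 27.1 CPM with nc shRNA and 47.2, 41.3 and 43.5 CPM with P16 shRNA (log2 fold change 0.79, SE 0.11, adjusted p = 0.0256 from edgeR), and Rdh11 at 18.9, 18.4 and 21.2 against 38.6, 31.4 and 40.7 CPM (0.93, SE 0.14, adjusted p = 0.0316). Neither gene shows overlap between the groups. In Cd146+ cells the smallest p were those of Rdh11 (1.05), Acat2, which joins acetyl-CoA units (0.94), and Mid1ip1, a regulator of acetyl-CoA carboxylase (0.58), each with an adjusted p of 0.382 by groups alone. With the block over 12 libraries these 3 and Tmem97 rose there too, with adjusted p from 0.0048 to 0.0208, and 5 of the 22 rose in all (3.53% of all genes).

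Of 18 genes of sterol efflux, transport and oxysterols, 5 rose and 4 fell in the blocked Cd31+ fit (8.92% and 9.9% of all genes). Cav1, the caveolar coat protein, fell by 0.96 (adjusted p = 0.031 from edgeR by groups alone), from 644, 519 and 533 CPM with nc shRNA to 322, 294 and 252 CPM with P16 shRNA. In the P16 comparisons, the genes with an unadjusted p under 0.05 were Npc2, which moves cholesterol out of lysosomes (0.40, Cd31+ cells), Mbtps2, a protease that releases SREBP (−0.38, Cd31+ cells), and Cyp27a1, the sterol 27-hydroxylase (2.11, Cd146+ cells, at 0.504 to 10.6 CPM), each with an adjusted p of 0.947 or 0.986.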

How the data were processed

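RNA sequencing of 24 libraries was analysed as deposited by the authors. The authors' table gives whole read counts per gene, without normalization, and FPKM for the same libraries. Novogene made it, per the paper's methods. The submitters' processing notes name fastp and mm9, and the aligner and counter are not given in the sources used here. Gene starts in the table did not lie within 10000 bases of the GRCm38.p6 starts for any member (0 of 28) and no annotation of the table's build was at hand, so no gene coordinates are printed from the table. A further 20 columns hold the authors' own comparisons (group means, log2 fold changes, p-values and adjusted p-values), and were not used. Libraries were assigned by their labels.

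Counts were analysed in R 4.3.3 with edgeR 4.0.16: filterByExpr, TMM, robust quasi-likelihood fit, two-sided test, and Benjamini-Hochberg adjustment over all genes tested, with a threshold of 0.05. The groups compared entered each fit alone, and the populations were compared with construct as a term. CPM are TMM-normalized over 24 libraries. SEs are the log2 fold change divided by the root of the F statistic. A count of 0 allows up to 3 counts (0.113 to 0.195 CPM, counting error only). Replicates differed by more than sampling noise. The scripts were tested on simulated data.

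Labels give groups of a population shared replicate numbers. After group means were removed, same-numbered libraries correlated with a median r of 0.559 in Cd31+ cells (13 pairs, lowest 0.384) and 0.711 in Cd146+ cells (10 pairs, lowest 0.389), against −0.174 (41 pairs) and −0.0725 (44 pairs) for other numbers. The numbers were taken to pair the samples of a population, and the replicate block is printed beside the results it changes. In the comparison of the populations the block also matched numbers across them, which these correlations do not cover.

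The members and all lists were chosen with earlier results of these data known. Values in every library are given for the regulators, Hmgcs1, Sqle, Fasn, the desaturases and, in each comparison of a construct with its control, the 4 members of smallest unadjusted p under 0.05, with the 3 such genes of the other lists named. Alternatives were DESeq2 1.42.0 (size factors, Wald test), all genes with at least 1 count, 12 libraries in one fit, the block, and each library left out. Chosen after seeing the data were a term for Xist over Ddx3y, the fits without libraries low in Pecam1 (under 10% of its median), and the blocked silencing fits without a replicate number. Near copies were found with BLAST between annotated transcripts.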

Additional observations from a re-analysis of the deposited data

How the results depend on the processing

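Comparisons were recomputed under each alternative that could be fitted to their libraries. The counts below are given without the share of all genes, which is printed above for part of these fits only. They show how the fits differ and are no result about the members against other genes. A sex-linked term and the fits without low Pecam1 libraries were not run for Cd31+ silencing, whose libraries do not differ in either, and a block over 2 groups could not be fitted where only number 5 is shared. Direction of the median over the members did not change under any of them in the 4 comparisons of P16 or P16 shRNA with its control. For silencing in Cd31+ cells, members at an unadjusted p under 0.05 numbered 4, and 9 with all genes of at least 1 count, 8 with DESeq2's Wald test, 15 with the replicate block over 2 groups and 14 with it over 12 libraries. At an adjusted p they numbered 0, and 3, 0, 11 and 11. With libraries or replicate numbers left out the counts ran from 0 to 15 and from 0 to 13, and the median from 0.052 to 0.509.

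For silencing in Cd146+ cells the counts were 6 at an unadjusted p, and 13 and 16 with the replicate block (2 groups, 12 libraries). Without the libraries low in Pecam1 the count was 2. At an adjusted p the counts were 0, again 0 with the block over 2 groups, and 3 with it over 12 libraries. With the latter block and without the libraries low in Pecam1, P16 shRNA counts through library 5 alone, and Mvd reversed to −0.087. Left-out libraries gave 2 to 22, 0 to 20, and a median of 0.101 to 0.792.

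For P16 in Cd31+ cells the count of 1 was 2 with all genes of at least 1 count and 3 with the replicate block over 2 groups (0 to 3 with libraries left out, median −0.438 to −0.035). For P16 in Cd146+ cells 6 became 0 with the block, and 10 without the low Pecam1 libraries (3 to 10, median −0.624 to −0.319), and the median moved to −0.125 with both.

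Between the controls of Cd31+ cells 2 became 1 with DESeq2, 0 with the sex-linked term, and 1 at an adjusted p with the replicate block over 2 groups (0 to 5, median −0.406 to −0.064). Between those of Cd146+ cells 9 became 0 with the block, 2 with the sex-linked term, 4 without the low Pecam1 libraries and 0 with the block and without them (1 to 13, median −0.63 to −0.315). The median moved to −0.195 with the block and −0.094 with both, Ebp reversed to −0.058 and −0.111, and with both Mvd (0.13), Idi1 (0.028) and Scd1 (0.089) reversed.

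Between the populations 6 became 3 with the block and 3 with the sex-linked term, and 0 at an adjusted p became 1 with DESeq2 (2 to 7, median 0.07 to 0.243). For the difference of the silencing effect 0 became 2 with the replicate block (0 to 1, median −0.333 to 0.278), and for that of the P16 effect 1 with all genes of at least 1 count (0 to 3, median −0.429 to −0.037). In the fits by groups alone, leaving out any single library gave 0 members at an adjusted p under 0.05 in each comparison. The cause of these changes was not tested, and 3 libraries a group limit all of them.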
